A study of Homo sapiens with 24 samples.

Results

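The imprinted genes described here are 10 listed genes, MEST, H19, IGF2, DLK1, MEG3, PEG3, PEG10, PLAGL1, SNRPN and NNAT, in A2780 and ES2, which are 2 established human lines from ovarian cancers. A gene's level was its TPM, the share of a library's transcripts scaled to a fixed total, summed per gene symbol over distinct transcripts. Of the 10 genes, 8 had a value among the 28907 gene symbols of the table, and H19 and MEG3 were not analysed here. The list was chosen by a measured value of these libraries as well as by name, namely the level of MEST, which differed by about 3 orders of magnitude between the lines. The contrast of the lines is therefore given as a description, without a test. The contrasts of treatments were not used in the choice and are tested.

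RNA of each line was sequenced in 4 groups of 3 libraries, 24 libraries in 8 groups. One group received a control siRNA (siCtrl), one an siRNA against VRK1 (siVRK1), one the solvent DMSO and one luteolin, a plant flavone. VRK1 is a nuclear serine/threonine kinase. All groups carry the genotype label WT, and the sources used here give no dose or duration. Groups follow the sample titles, because the line and treatment fields count upwards from library to library within a group. A pair of ES2 siVRK1 libraries share 1 column name and are called a and b beside library 3. Nothing states whether libraries came from separate cultures, so p-values measure the spread between these libraries, which may be technical.

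Imprinted genes are read mainly from the copy inherited from one parent, and which copy is read depends on a DNA methylation mark set in the egg or sperm. MEST, IGF2, DLK1, PEG3, PEG10, PLAGL1, SNRPN and NNAT are read from the paternal copy, and H19 and MEG3 from the maternal copy. Many of these genes act in the growth of the embryo and placenta, and tumours often lose or gain their expression. Summed TPM does not separate the 2 parental copies, and no methylation was measured, so nothing here reports on imprinting itself. The data are from bulk RNA, in which fewer expressing cells and less RNA per cell cannot be told apart.

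The libraries were alike within groups, with a Pearson r of 0.991 to 0.994 across genes, and none repeated another. A library had 11792 to 12862 genes at 1 TPM or more. Sequencing depth cannot be read from TPM and is unknown. VRK1, the silenced gene, was 53.6 to 55.2 TPM with siCtrl and 7.98 to 11.3 TPM with siVRK1 in A2780, and 62.2 to 66.2 TPM against 2.92 to 4.20 TPM in ES2. Of 13 markers of ovarian epithelium, the siCtrl libraries of ES2 had 6 at a mean of 1 TPM or more, with a summed level of 962 to 988 TPM, and those of A2780 had 3, with a summed level of 10.7 to 12.7 TPM. Nearly all of the ES2 sum was the keratins KRT18 (531 TPM), KRT7 (349 TPM) and KRT8 (88.0 TPM). Each other marker averaged at most 2.34 TPM in ES2 siCtrl. KRT18 led A2780 siCtrl at 8.46 TPM. SOX17 and MUC16 were listed at 0 in the siCtrl libraries of both lines. For leukocytes the summed marker level was 36.0 to 42.2 TPM in ES2 siCtrl, led by CD68, and 2.34 to 3.30 TPM in A2780 siCtrl, with CD3E at 0 in both. Endothelial markers summed to 31.6 to 33.2 TPM in ES2 siCtrl, led by CDH5, with 1 of 6 at a mean of 1 TPM or more. Of 7 fibroblast markers 6 passed that mark in A2780 siCtrl, led by COL3A1, and 2 in ES2 siCtrl, led by COL1A1, while the summed level was 70.3 to 72.5 TPM in A2780 siCtrl and 82.1 to 97.97 TPM in ES2 siCtrl. Whether these markers have a part in the levels of the imprinted genes was not tested.

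Of the 8 genes with a value, 3 have promoter windows in the RefSeq table used here, on build GRCh38.p14, and these are shown because the start sites behind the measured RNA lie beside them. The first precedes the start of MEST-201, the leading MEST transcript, and the second the start far upstream of it. The third precedes SNRPN-202, the leading transcript of SNRPN, and the fourth PLAGL1-226, which led PLAGL1 in all groups but A2780 siCtrl. Each run is the 150 bases before the outermost annotated start, 5′ to 3′ on the strand of the gene, and capitals mark each CG, the dinucleotide that DNA methylation targets. CG reads the same on both strands and was searched without overlap with any other motif.
MEST main start, chr7:130491908-130492057, plus strand: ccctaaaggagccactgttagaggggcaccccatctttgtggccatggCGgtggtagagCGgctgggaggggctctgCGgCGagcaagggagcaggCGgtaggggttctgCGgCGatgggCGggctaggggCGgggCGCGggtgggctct
MEST upstream start, chr7:130486021-130486170, plus strand: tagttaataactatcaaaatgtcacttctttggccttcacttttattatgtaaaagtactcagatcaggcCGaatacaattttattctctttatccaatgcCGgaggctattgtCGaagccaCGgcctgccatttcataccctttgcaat
SNRPN-202 start, chr15:24954777-24954926, plus strand: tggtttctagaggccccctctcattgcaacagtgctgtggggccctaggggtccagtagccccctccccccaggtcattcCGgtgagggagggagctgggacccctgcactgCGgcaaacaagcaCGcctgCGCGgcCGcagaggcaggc
PLAGL1-226 start, chr6:144008262-144008411, minus strand: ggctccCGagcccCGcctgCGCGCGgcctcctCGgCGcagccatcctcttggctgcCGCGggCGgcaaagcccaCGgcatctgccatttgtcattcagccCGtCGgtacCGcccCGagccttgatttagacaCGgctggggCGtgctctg
In the 250 bases before its RefSeq start, the PLAGL1 window held 32 CG, more than 90.5% of the 35116 promoter windows of the table. The MEST main window held 16 CG and the MEST upstream window shown held 9, against a median of 11 over all windows. The table has 3 further MEST windows, of which another upstream one, for a start at chr7:130486347, held 20 CG, a second at the main start held 20 and one between held 11. The SNRPN window held 12. A CG was present in 93.9% of all windows, so its presence sets none of these apart, and the counts are descriptions of sequence only.

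MEST was one of the most abundant RNAs of A2780 and almost absent from ES2. It encodes a hydrolase-like protein of embryonic mesoderm and lies at chr7:130486171-130506465 on GRCh38. In A2780 its TPM was 1680, 1582 and 1955 with DMSO, 1872, 1892 and 1701 with luteolin, 2255, 2171 and 2193 with siCtrl, and 2388, 2324 and 2312 with siVRK1. In ES2 it was 0.306, 1.66 and 0.316 with DMSO, 0.507, 0.198 and 0.372 with luteolin, 0.760, 0.534 and 2.61 with siCtrl, and 0.465, 0.470 and 2.15 with siVRK1. The lines did not come near each other in any library, and the ES2 values above 1 TPM were single libraries of 3 different groups. Over the 6 control libraries of a line (siCtrl and DMSO) the mean was 1973 TPM in A2780 and 1.03 TPM in ES2, a ratio of 1912. By condition the ratio of means was 2284 with DMSO, 5073 with luteolin, 1694 with siCtrl and 2279 with siVRK1, over ES2 means of 0.762, 0.359, 1.30 and 1.03 TPM. Single ES2 libraries set 3 of these ratios, which became 5591 without DMSO 2, 3410 without siCtrl 3 and 5013 without siVRK1 3. MEST ranked 81 among 28907 genes by mean TPM in A2780. On the log2(TPM + 1) scale ES2 was 10.02 below A2780, the 4th largest difference among 14328 genes.

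Another 2 of the genes were past an 8-fold difference between the lines on the log2(TPM + 1) scale, in opposite directions. DLK1, a membrane protein related to Notch ligands that keeps precursor cells undifferentiated, lies at chr14:100725705-100738224. It was 17.9 to 35.5 TPM in the 12 A2780 libraries and was listed at 0 in all 12 ES2 libraries, so no ratio is given. PEG10, a gene derived from a retrotransposon and needed for the placenta, lies at chr7:94656325-94669695. It was 11.1 to 30.0 TPM in ES2 and 0.141 to 0.747 TPM in A2780, 3.68 higher in ES2 on the log2(TPM + 1) scale of the controls. Of all 14328 genes, 7.34% were past 8-fold, and the choice of genes used this contrast. SNRPN and PLAGL1 lay inside 8-fold, at -1.23 and 0.89 for ES2 minus A2780. SNRPN (chr15:24823637-24978723) encodes a core protein of the splicing machinery and was 98.1 to 134 TPM in A2780 and 31.3 to 69.1 TPM in ES2. PLAGL1 (chr6:143940300-144064599) encodes a zinc finger transcription factor that restrains proliferation, at 6.99 to 20.6 TPM in A2780 and 12.5 to 22.5 TPM in ES2.

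The remaining 3 genes were near or below 1 TPM in both lines. NNAT, a small membrane proteolipid of neurons and endocrine cells at chr20:37521206-37523693, was 0.150 to 2.54 TPM in A2780 and 0.227 to 1.60 TPM in ES2. IGF2, the fetal growth factor at chr11:2129112-2149603, was 0.0910 to 0.642 TPM in A2780 and listed at 0 in 9 of 12 ES2 libraries. PEG3, a zinc finger gene at chr19:56810077-56840728, was listed at 0 in all 12 ES2 and 10 of 12 A2780 libraries. IGF2 and PEG3 stayed below the minimum for a test (1 TPM in at least 3 libraries of the fit), DLK1 below it in ES2 and PEG10 below it in A2780. Each line thus had 5 of the 10 genes tested.

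**Figure D1:**
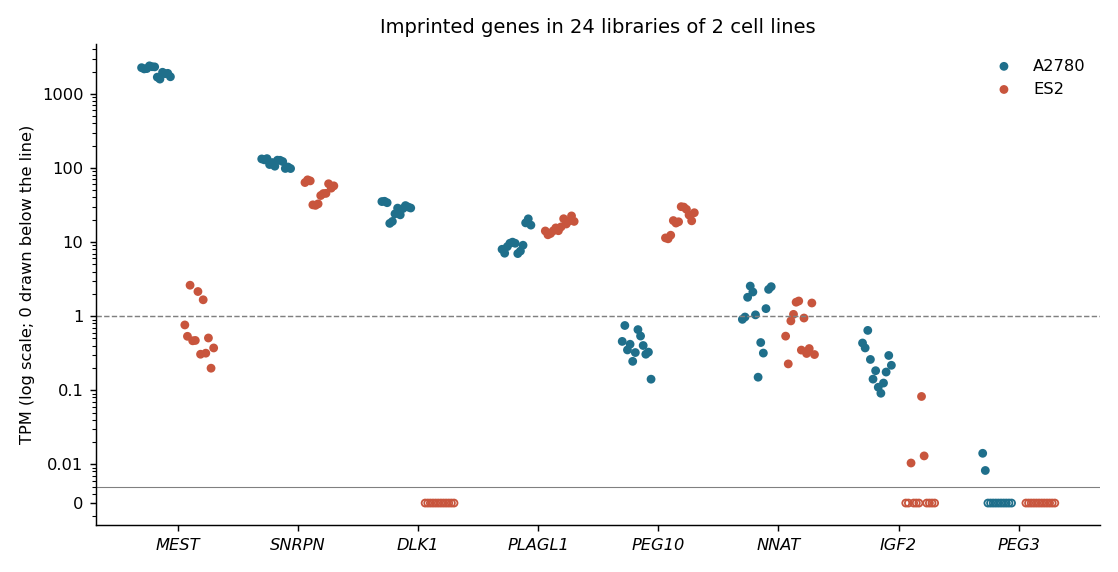
TPM of the 8 imprinted genes with a value (log axis, 0 drawn below the grey line) in the 12 A2780 and 12 ES2 libraries; each point is a library and the dashed line marks 1 TPM. MEST lies at 1582 TPM or more in every A2780 library and at or below 2.61 TPM in ES2, while PEG10 shows the opposite order of the lines.

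The neighbours of these genes were read to see how far a line difference extended along the chromosome. Beside MEST the order of the lines turned round for CPA4, COPG2 and CEP41 but not for KLF14. CPA4, a secreted carboxypeptidase in the same imprinted cluster, averaged 664 TPM in ES2 controls and 1.11 TPM in A2780 controls, 8.37 higher in ES2 on the log2(TPM + 1) scale and the 21st largest difference of all genes. COPG2, a coat protein subunit whose gene overlaps the end of MEST on the other strand, was 54.8 TPM in ES2 and 17.4 TPM in A2780 with DMSO. CEP41, a centrosomal protein gene of the same cluster, was 32.6 and 14.7 TPM. KLF14, a transcription factor gene, was 0.835 TPM in ES2 and 2.40 TPM in A2780.

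Around PEG10 some neighbours shared its line difference and others did not. SGCE, the epsilon-sarcoglycan gene that starts head to head with PEG10 and overlaps its first bases, averaged 17.1 TPM in ES2 controls and 0.242 TPM in A2780 controls. TFPI2, a protease inhibitor gene, was 105 TPM in ES2 and 1.23 TPM in A2780 with DMSO, while CASD1, a sialic acid acetyltransferase gene, was 5.34 and 4.89 TPM. Beside SNRPN, NDN, a growth suppressor related to MAGE proteins, averaged 33.8 TPM in A2780 controls and was listed at 0 in all ES2 groups. MKRN3, a ring finger gene of the same cluster, averaged 16.0 TPM in A2780 controls and 0.124 TPM in ES2 controls. UBE3A, the ubiquitin ligase at the far end of that cluster, was 43.3 TPM in A2780 and 39.5 TPM in ES2 with DMSO. With siCtrl it was 73.9 and 36.5 TPM. NDN and MKRN3 were thus seen almost solely in A2780, while both lines expressed SNRPN and UBE3A. MAGEL2 of the same cluster was also at 0 in ES2, but at most 0.409 TPM by group mean in A2780. Near DLK1, BEGAIN was 1.51 to 4.30 TPM by group mean in A2780 and at most 0.0890 TPM in ES2. DIO3 was 0.518 to 1.02 TPM and RTL1 0.105 to 0.178 TPM by group mean in A2780, both at 0 in ES2. WDR25 was 4.75 TPM in A2780 and 3.74 TPM in ES2 with DMSO. Because strand was not stated, reads in the shared stretches of MEST and COPG2, PEG10 and SGCE, or NNAT and BLCAP cannot be assigned with certainty. SNRPN and SNURF lie on the same strand, so for their shared stretches strand would not separate the reads either.

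**Figure D2:**
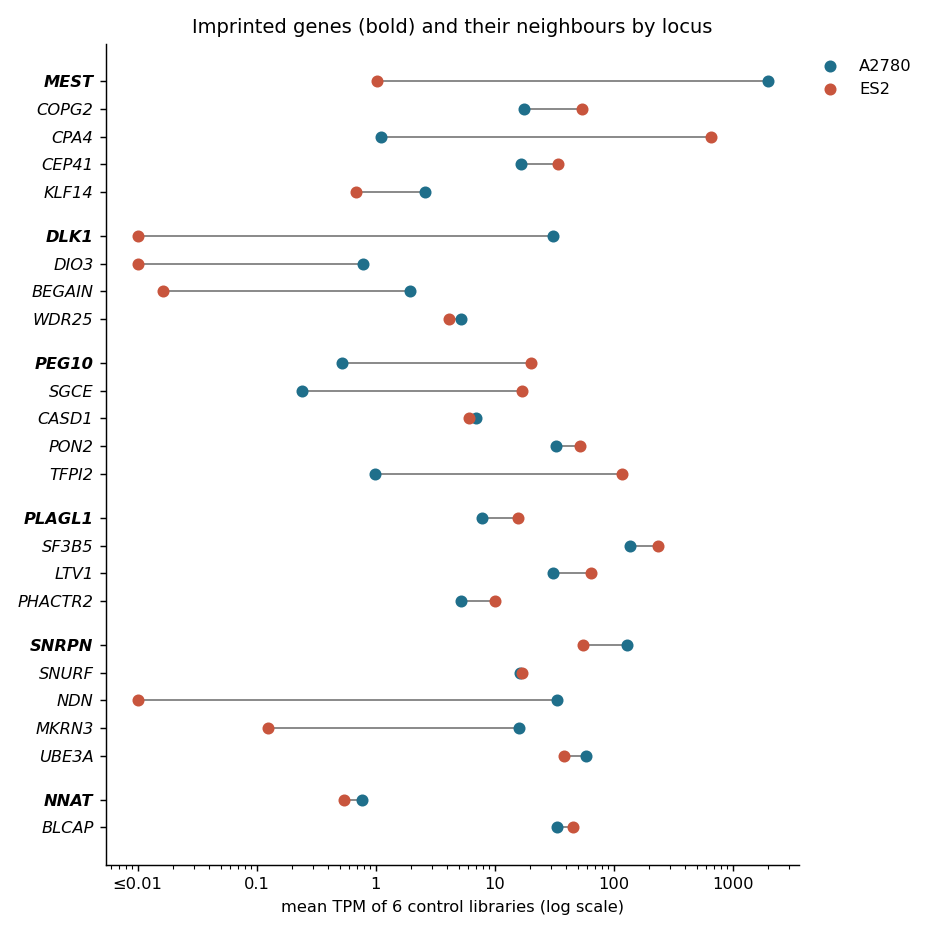
Mean TPM of the 6 control libraries of each line (log axis; values of 0.01 or less are drawn at 0.01) for the imprinted genes in bold and the neighbours of each that reached 1 TPM in some group. Beside MEST, CPA4 has the opposite order of the lines, with 664 TPM in ES2 and 1.11 TPM in A2780, while SGCE has the order of PEG10.

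Among 37 other imprinted genes with a value, 29 reached the minimum of 1 TPM in 3 libraries. On the log2(TPM + 1) scale of the controls, 5 of these were past 8-fold between the lines. They were CPA4 and SGCE, higher in ES2, and NDN, NLRP2 and MKRN3, higher in A2780. NLRP2, an inflammasome-related gene with a maternal role in the egg, averaged 34.0 TPM in A2780 controls and 0.199 TPM in ES2 controls. The 5 of 29 are 17.2%, beside 7.34% of all genes, and this share was not tested. The log2(TPM + 1) scale shrinks differences at low TPM. By the ratio of mean control TPM, CDKN1C (205), ATP10A (77.2) and DIRAS3 (20.0) were also past 8-fold, higher in A2780. WT1 (40.6) and ZDBF2 (12.4) were past it as well, higher in ES2. In the higher line these genes averaged 1.75 to 3.86 TPM. The share of all genes past 8-fold by this ratio is not given here, so nothing is read from their number.

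MEST transcripts in A2780 came mostly from one start. The 4 transcripts that start at chr7:130492058-130492472 made up 62.2% ± 0.73 of MEST TPM with DMSO, 65.8% ± 1.16 with luteolin, 62.7% ± 0.64 with siCtrl and 61.5% ± 0.73 with siVRK1 (SD, n = 3 each). MEST-201, the protein-coding transcript behind the first promoter shown, led this class with 1038 TPM ± 125 with DMSO and 1365 TPM ± 8.45 with siVRK1. The 6 transcripts from the upstream start contributed 20.4% to 24.6% in the DMSO libraries and 10.6% to 11.5% in the luteolin libraries, without overlap. With siCtrl and siVRK1 the upstream share was 17.1% ± 1.60 and 17.3% ± 0.92. The 5 transcripts that start further inside the gene took 9.32% ± 3.44 with DMSO and 19.7% ± 4.30 with luteolin. In the siCtrl and siVRK1 groups they took 17.8% ± 1.97 and 18.8% ± 0.82, so for this class DMSO was the group that stood apart. By group mean, DMSO and luteolin libraries held 1739 and 1821 TPM of MEST in all, of which 390 and 202 TPM came from the upstream class. These classes were set after the values were seen and are given without a test. Transcript TPM is an estimate that divides shared reads, so it is less certain than the gene sum.

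**Figure D3:**
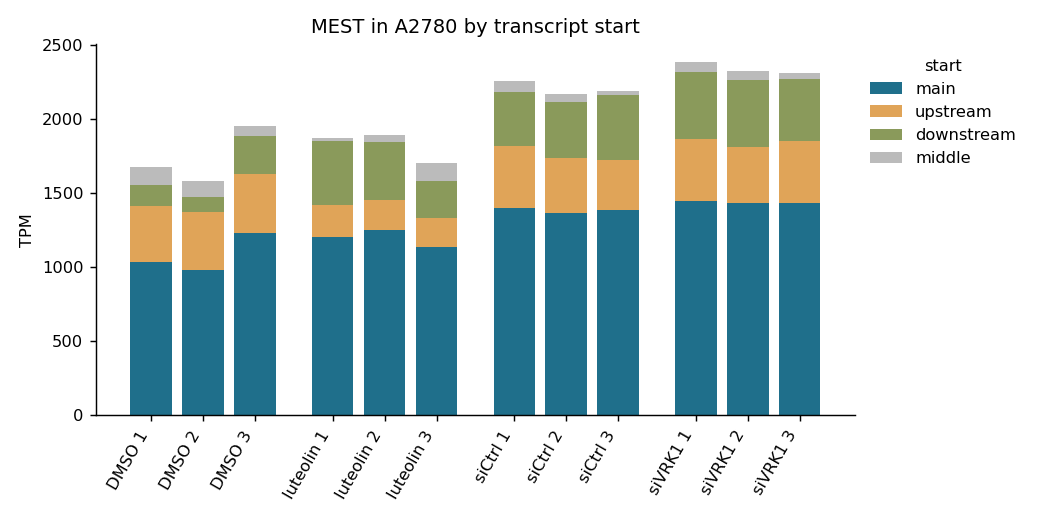
MEST TPM in the 12 A2780 libraries, stacked by the start of the annotated transcript (main, upstream, downstream inside the gene, and middle between upstream and main). The upstream class is 10.6% to 11.5% of MEST in the luteolin libraries and 20.4% to 24.6% in the DMSO libraries.

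SNRPN, DLK1 and PEG10 were each dominated by 1 transcript and PLAGL1 was not. SNRPN-202 made up 82.4% to 90.1% of SNRPN by group mean, DLK1-201 made up 72.8% to 80.6% of DLK1 in A2780, and PEG10-202 made up 68.2% to 84.6% of PEG10 in ES2. PLAGL1-226 led PLAGL1 with 49.4% ± 5.09 in ES2 luteolin and 36.6% ± 4.76 in A2780 DMSO, and in A2780 siCtrl another transcript led with 15.7%. The changes in SNRPN described next are therefore mainly those of the transcript behind the third promoter shown.

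With siVRK1, SNRPN fell in both lines, though in A2780 the call was lost under another scaling. DLK1 fell in A2780 and PEG10 rose in ES2, each in the one line where it was expressed highly enough for a test. MEST passed the test in neither line. The tests were made with limma on log2(TPM + 1), two-sided, adjusted by Benjamini-Hochberg over all genes, with a threshold of 0.05.

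SNRPN in ES2 was 63.5, 69.1 and 66.9 TPM with siCtrl and 31.8, 31.3 and 32.7 TPM with siVRK1. The groups lay far apart, and siVRK1 was the lowest of the 4 ES2 groups. The log2 difference was -1.04 ± 0.06 (SE), with a limma adjusted p of 1.34e-08. In A2780 SNRPN was 132, 129 and 134 TPM with siCtrl and 111, 118 and 106 TPM with siVRK1, again without overlap. The difference there was -0.24 ± 0.05 (adjusted p = 0.00173), and with median-of-ratios scaling it was -0.15 and did not pass (adjusted p = 0.0538). The fall was larger in ES2 by 0.80 ± 0.07 on the log2 scale, tested as an interaction over all 24 libraries (adjusted p = 2.98e-08). SNURF, which shares the transcripts of SNRPN in part, averaged 24.2 TPM ± 11.4 in ES2 siCtrl and 9.87 TPM ± 4.02 in ES2 siVRK1 (SD, n = 3 each). These SNURF groups overlapped, and its ES2 DMSO level was 9.79 TPM.

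DLK1 in A2780 was 35.2, 35.5 and 34.0 TPM with siCtrl and 17.9, 18.98 and 24.03 TPM with siVRK1. All 3 silenced libraries lay below all 9 others of the line except that one DMSO library, at 23.3 TPM, lay below the highest of them. The log2 difference from siCtrl was -0.76 ± 0.10 (adjusted p = 9.58e-05). The difference of effects between the lines was 0.76 (adjusted p = 8.86e-05), which restates the A2780 value because ES2 had DLK1 at 0 throughout.

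PEG10 in ES2 was 11.4, 11.1 and 12.4 TPM with siCtrl and 19.5, 18.04 and 18.8 TPM with siVRK1. The rise was 0.65 ± 0.08 on the log2 scale (adjusted p = 3.19e-05). The siCtrl libraries were the lowest of the line for PEG10, and the DMSO libraries, at 27.6 to 30.0 TPM, lay above the silenced ones. In A2780, where PEG10 was not tested within the line, it averaged 0.518 TPM with siCtrl and 0.328 TPM with siVRK1. The difference of effects between the lines was 0.84 ± 0.15 (adjusted p = 1.70e-04), but PEG10 entered the fit of 24 libraries through ES2 alone, and the A2780 part of that value comes from levels below 1 TPM, so nothing is read from it. SGCE, the head-to-head neighbour, also rose in ES2, from 14.1 to 19.7 TPM by group mean, at 0.45 ± 0.09 (adjusted p = 0.00132). Its DMSO level there was 20.1 TPM.

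The other values did not pass. MEST in A2780 differed by 0.09 ± 0.06 (adjusted p = 0.317). Its difference in ES2 was -0.18 ± 0.39 (adjusted p = 0.722). In A2780 the silenced libraries of MEST did not overlap with siCtrl, and the difference passed with median-of-ratios scaling (0.17, adjusted p = 0.0208). PLAGL1 was 7.98, 7.07 and 8.68 TPM with siCtrl and 9.63, 9.96 and 9.62 TPM with siVRK1 in A2780. Its difference of 0.27 ± 0.11 missed the threshold (adjusted p = 0.0562) and passed with median-of-ratios scaling (0.35, adjusted p = 0.0101). In ES2 PLAGL1 differed by 0.14 ± 0.09 (adjusted p = 0.245). For NNAT the difference was 0.37 ± 0.24 in A2780 (adjusted p = 0.241). In ES2 it was 0.65 ± 0.26 (adjusted p = 0.0530), where siVRK1 libraries had 1.06 to 1.60 TPM and siCtrl libraries 0.227 to 0.862 TPM. NNAT reached 1 TPM in 4 of 12 ES2 libraries, the siVRK1 libraries and luteolin 2. It thus entered the ES2 fit mainly through the group where it was high, so nothing is read from this difference.

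Read against the background, 2 of 5 imprinted genes tested were called in A2780, where 40.9% of 13012 genes were, and 2 of 5 in ES2, where 54.8% of 12507 genes were. For the difference of effects it was 3 of 6, with 33.9% of 14328 genes called, but DLK1 and PEG10, both among the 3, entered that fit through a single line. These shares are not read as a result about the list. Among called genes of A2780, 33.8% were higher with siVRK1, and 49.5% with median-of-ratios scaling. For the difference of effects the share above 0 was 61.0%, and 44.7% with that scaling.

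**Figure D4:**
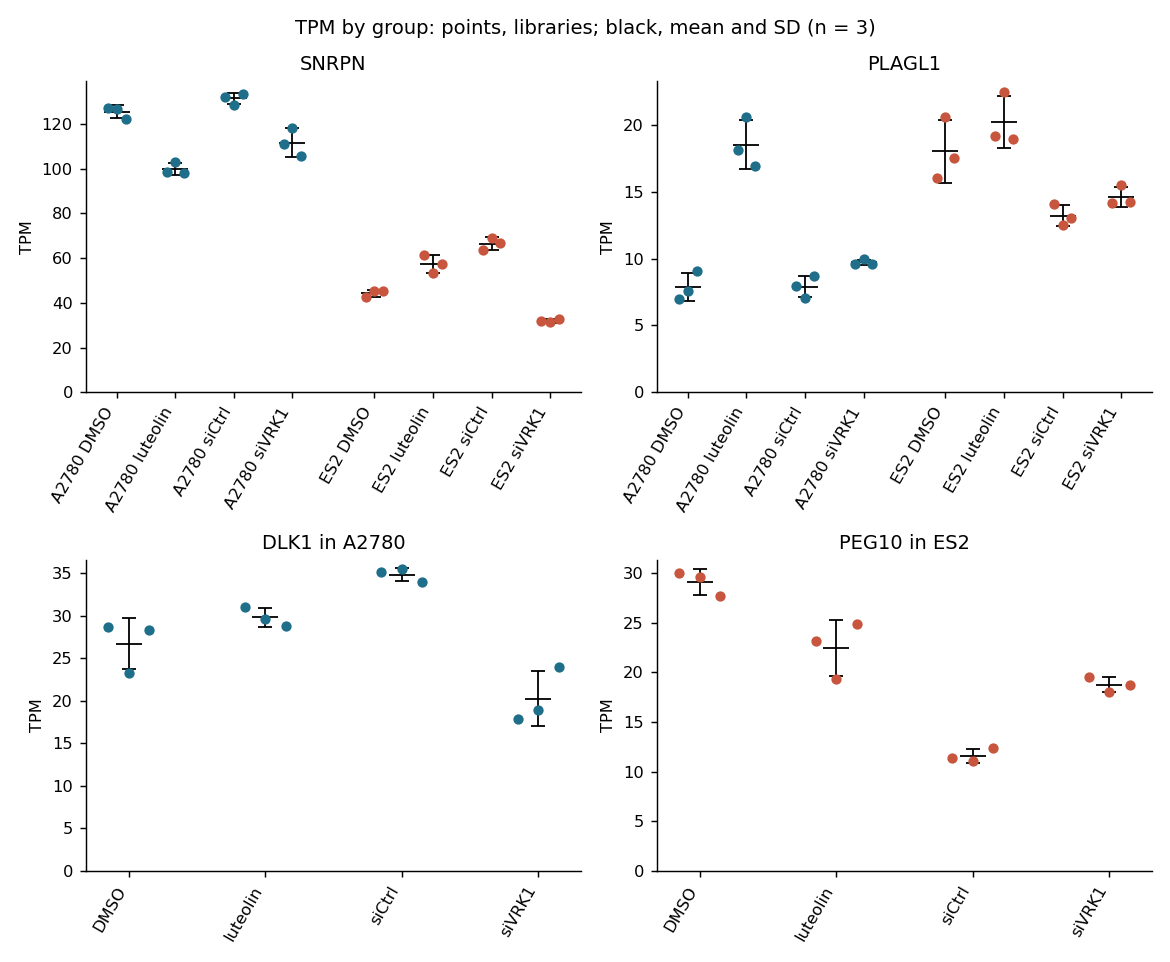
TPM by group for SNRPN and PLAGL1 in both lines, DLK1 in A2780 and PEG10 in ES2; points are libraries, black bars the mean and SD of 3 libraries. In ES2 the siVRK1 libraries of SNRPN, 31.3 to 32.7 TPM, lie below all others, and in A2780 the luteolin libraries of PLAGL1, 16.9 to 20.6 TPM, lie above all others.

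Luteolin moved SNRPN in opposite directions in the lines, raised PLAGL1 and NNAT in A2780 and lowered PEG10 in ES2. In A2780 the median difference of all genes was 0.22 and moved to -0.02 with median-of-ratios scaling, so values of that comparison are given relative to the median of all genes.

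PLAGL1 in A2780 was 6.99, 7.55 and 9.05 TPM with DMSO and 18.1, 20.6 and 16.9 TPM with luteolin. The treated libraries lay within the range of the ES2 libraries, and none overlapped with any other A2780 library. The rise was 0.93 above the median of all genes (1.14 ± 0.11 before that subtraction, adjusted p = 1.17e-06). In ES2 PLAGL1 was 16.0, 20.6 and 17.5 TPM with DMSO and 19.2, 22.5 and 18.99 TPM with luteolin, groups that overlapped, at 0.16 ± 0.09 (adjusted p = 0.187). The effect in ES2 was smaller by 0.79 relative to the median of all genes (0.98 before subtraction, adjusted p = 1.14e-05).

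SNRPN in A2780 was 127, 127 and 122 TPM with DMSO and 98.4, 103 and 98.1 TPM with luteolin. It fell by 0.54 relative to the median of all genes (-0.33 ± 0.05 before subtraction, adjusted p = 5.92e-05). In ES2 it was 42.4, 45.1 and 45.4 TPM with DMSO and 61.2, 53.4 and 57.3 TPM with luteolin, a rise of 0.36 ± 0.06 (adjusted p = 1.84e-04). No library of a treated group overlapped with its control in either line. The effects differed by 0.88 relative to the median of all genes (0.69 ± 0.07 before subtraction, adjusted p = 1.53e-07).

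PEG10 in ES2 was 30.0, 29.6 and 27.6 TPM with DMSO and 23.1, 19.3 and 24.9 TPM with luteolin. It fell by 0.37 ± 0.08 on the log2 scale (SE, adjusted p = 0.00327) without overlap. SGCE did not follow it, with 20.1 TPM in DMSO and 24.01 TPM in luteolin by group mean, a rise of 0.25 ± 0.09 (adjusted p = 0.0429; 0.0504 with median-of-ratios scaling). The difference in the PEG10 effect between lines did not pass (-0.08 ± 0.15, adjusted p = 0.673), with A2780 below 1 TPM.

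NNAT in A2780 was 0.150, 0.440 and 0.317 TPM with DMSO and 1.26, 2.30 and 2.50 TPM with luteolin. The rise was 0.98 above the median of all genes (adjusted p = 6.95e-04), at a level near 1 TPM at which the scale understates change. BLCAP, in whose intron NNAT lies, was 30.6 TPM with DMSO and 69.1 TPM with luteolin by group mean and rose by 0.93 relative to the median (adjusted p = 6.49e-08). In ES2 NNAT differed by 0.12 ± 0.26 (adjusted p = 0.727). The difference of effects was -0.87 relative to the median (adjusted p = 0.0191) and was lost without A2780 luteolin 3, ES2 DMSO 2, ES2 luteolin 1 or ES2 luteolin 3, each left out alone (adjusted p = 0.0504 to 0.0593).

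MEST in A2780 lay 0.15 below the median of all genes with luteolin (0.07 ± 0.06 before subtraction, adjusted p = 0.350), and the value before subtraction turned sign with median-of-ratios scaling, where it passed as lower (-0.19, adjusted p = 0.00740). Without DMSO 3 it passed as higher (0.16, adjusted p = 0.0107). DLK1 in A2780 differed by 0.16 ± 0.10 before subtraction (adjusted p = 0.193), which is -0.06 relative to the median, and the value before subtraction was -0.0955 with median-of-ratios scaling. MEST in ES2 differed by -0.30 ± 0.39 (adjusted p = 0.559). Of 5 imprinted genes tested 3 were called in A2780, where 65.5% of all genes were, and 2 of 5 in ES2, where 48.4% were. The difference of effects was called for SNRPN, PLAGL1 and NNAT, 3 of the 6 genes in that fit, with 50.5% of all genes called. Among called genes of A2780, 69.7% were higher with luteolin and 46.3% with median-of-ratios scaling, and for the difference of effects 29.1% lay above 0, and 50.9% with that scaling.

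**Figure D5:**
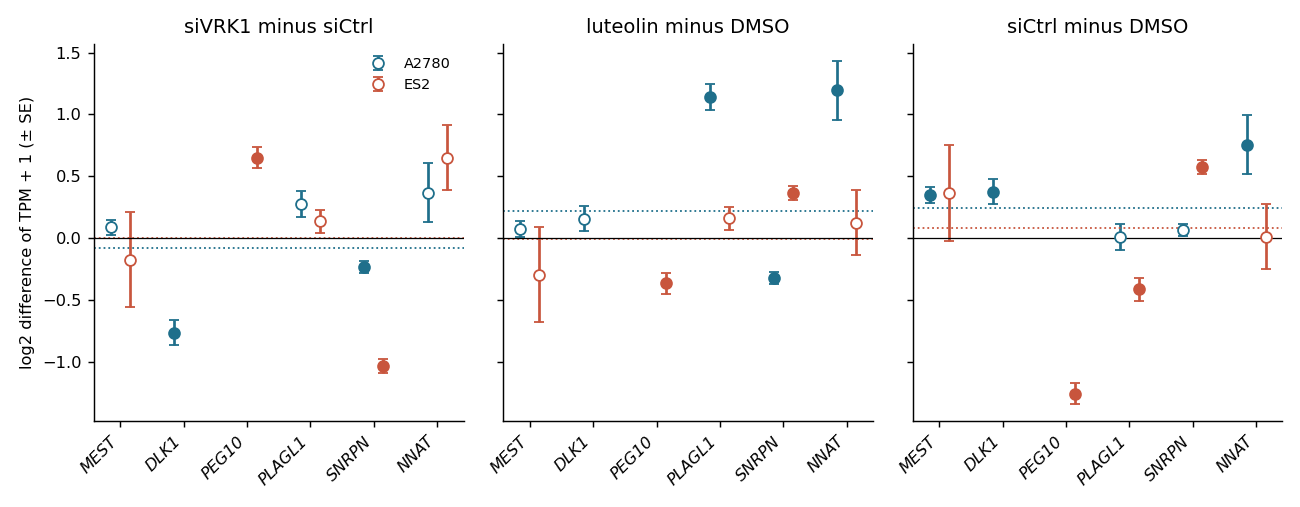
Log2 difference of TPM + 1 (± SE of the fit) for the 6 imprinted genes tested in at least 1 line, for 3 comparisons; filled points passed an adjusted p of 0.05 and dotted lines mark the median of all genes in that line. SNRPN shows -1.04 for siVRK1 and 0.36 for luteolin in ES2, and PEG10 shows -1.26 between the control groups of ES2.

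The control groups themselves differed, and siCtrl and DMSO libraries are separate baselines for the treatments. In ES2, PEG10 was 11.1 to 12.4 TPM with siCtrl and 27.6 to 30.0 TPM with DMSO, a fall of 1.26 ± 0.08 on the log2 scale (adjusted p = 1.15e-07) beside 0.65 for siVRK1 minus siCtrl and -0.37 for luteolin minus DMSO, which share these controls. SNRPN in ES2 was higher with siCtrl by 0.58 ± 0.06 (adjusted p = 2.70e-06), and PLAGL1 fell by 0.42 ± 0.09 (adjusted p = 0.00249). For PEG10 the siVRK1 libraries of ES2 lay between the 2 control groups, and for SNRPN they lay below both.

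In A2780 the median difference of siCtrl from DMSO over all genes was 0.24 and moved to 0.00 with median-of-ratios scaling. MEST lay 0.10 above that median (0.35 ± 0.06 before subtraction, adjusted p = 6.16e-04) and DLK1 0.13 above it (0.38 ± 0.10, adjusted p = 0.00742). Both calls were lost with median-of-ratios scaling (adjusted p = 0.259 and 0.428). NNAT lay 0.51 above the median (adjusted p = 0.0157), a call that was lost without siCtrl 3 (adjusted p = 0.0713) or DMSO 1 (adjusted p = 0.0562). SNRPN did not pass, at 0.07 ± 0.05 before subtraction (adjusted p = 0.236) and -0.18 relative to the median. Its value before subtraction turned with median-of-ratios scaling, where it passed as lower (-0.20, adjusted p = 0.0103). PLAGL1 did not pass either, at 0.01 ± 0.11 before subtraction (adjusted p = 0.943) and -0.23 relative to the median. Before subtraction it was -0.23 with median-of-ratios scaling, where it did not pass (adjusted p = 0.0576), and with quantile normalization it passed as lower (-0.31, adjusted p = 0.0170). Of 5 imprinted genes tested 3 were called in A2780, where 58.1% of all genes were, and 3 of 5 in ES2, where 56.2% were. Called genes were higher with siCtrl in 81.3% of cases in A2780 (46.0% with median-of-ratios scaling) and in 61.7% in ES2 (51.2% with quantile normalization).

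Ordered by level over all 8 groups, MEST ran from A2780 siVRK1 (2341 TPM ± 40.8) through siCtrl (2206 TPM ± 43.9), luteolin (1821 TPM ± 105) and DMSO (1739 TPM ± 193, SD, n = 3 each) to the 4 ES2 groups. Luteolin and DMSO overlapped, as did all neighbouring ES2 groups. SNRPN separated all 8 groups, from A2780 siCtrl at 132 TPM ± 2.57 down to ES2 siVRK1 at 31.9 TPM ± 0.75, with no overlap between neighbours. DLK1 ran from A2780 siCtrl (34.9 TPM ± 0.80) through luteolin (29.8 TPM ± 1.13) and DMSO (26.8 TPM ± 3.02) to siVRK1 (20.3 TPM ± 3.29), of which only DMSO and siVRK1 overlapped. PEG10 ran from ES2 DMSO (29.1 TPM ± 1.27) through luteolin (22.4 TPM ± 2.83) and siVRK1 (18.8 TPM ± 0.72) to siCtrl (11.6 TPM ± 0.68), of which luteolin and siVRK1 overlapped. PLAGL1 had ES2 luteolin (20.2 TPM ± 1.98), A2780 luteolin (18.5 TPM ± 1.86) and ES2 DMSO (18.1 TPM ± 2.36) at the top, each overlapping the next. NNAT groups overlapped throughout the order.

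Other imprinted genes followed no single direction. With siVRK1, 3 of 26 tested rose and 5 fell in A2780, where 40.9% of all genes were called, with a median of -0.04 beside -0.08 for all genes. In ES2, where 54.8% of all genes were called, 10 of 21 rose and 3 fell, with a median of 0.19 beside -0.00. With median-of-ratios scaling the A2780 split was 4 and 4 of 27. NDN rose in A2780 from 25.9 to 50.9 TPM by group mean (0.95 ± 0.05, adjusted p = 9.77e-08), although the DMSO level was 41.7 TPM. BLCAP rose in A2780 from 36.1 to 71.9 TPM (0.98 ± 0.08, adjusted p = 1.37e-06). In ES2, OSBPL5, a lipid transfer protein gene, rose by 0.91 ± 0.13 (adjusted p = 5.84e-05), and GRB10, an adaptor that restrains insulin and IGF receptors, fell by 0.45 ± 0.09 (adjusted p = 0.00143). OSBPL5 there averaged 2.02 TPM with siCtrl and 4.65 TPM with siVRK1, although the DMSO level was 5.94 TPM.

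With luteolin, 10 of 26 other imprinted genes were called higher and 4 lower in A2780, and 8 and 9 of 27 with median-of-ratios scaling, so the list has no fixed direction. Of all genes 65.5% were called in that comparison. L3MBTL1, a chromatin-binding protein gene, rose by 1.36 relative to the median of all genes (adjusted p = 6.45e-06) and ZNF331 by 0.97 (adjusted p = 4.84e-07). GNAS, the gene of the stimulatory G protein alpha subunit, went from 630 to 476 TPM and fell by 0.62 relative to the median (adjusted p = 4.00e-06). In ES2 9 of 21 rose and 4 fell, where 48.4% of all genes were called. CPA4, the neighbour of MEST, went from 797 to 258 TPM and fell by 1.63 ± 0.04 (adjusted p = 8.83e-11), and SLC22A18, a transporter gene, rose by 1.14 ± 0.23 (adjusted p = 0.00124).

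The genes that write, keep or remove methylation marks are described next, with levels for a few of the 18 listed. DNMT3A and DNMT3B, the enzymes that set new methylation, were 30.8 and 14.7 TPM in A2780 DMSO and 3.64 and 1.19 TPM in ES2 DMSO. ZFP57, a zinc finger protein that guards imprints in the embryo, was at most 0.440 TPM by group mean in A2780 and listed at 0 in ES2. UHRF1, which recruits DNMT1, was 103 TPM in A2780 DMSO and 80.3 TPM in ES2 DMSO. With siVRK1, 6 of 12 genes of this list were called in A2780, each of them lower (2 rose and 3 fell with median-of-ratios scaling), with a median of -0.21 beside -0.08 for all genes. Of all genes 40.9% were called there, and 33.8% of those were higher. TET1, which oxidises methylated cytosine, fell there by 0.77 ± 0.12 (adjusted p = 3.82e-04). In ES2, 4 of 11 rose and 2 fell, where 54.8% of all genes were called, with a median of 0.13 beside -0.00.

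DNMT1, which copies methylation after replication, rose with siVRK1 in ES2 by 1.54 ± 0.07 (adjusted p = 2.43e-09), and UHRF1 by 0.79 ± 0.04 (adjusted p = 1.55e-08). For DNMT1 the siCtrl group was the one that stood apart, at 34.8 TPM ± 1.12 against 103 TPM ± 7.01 with DMSO and 103 TPM ± 7.79 with siVRK1 (SD, n = 3 each). In A2780 DNMT1 was 78.6 TPM with siCtrl and 92.9 TPM with siVRK1. With luteolin, UHRF1 went from 103 to 42.6 TPM in A2780, 1.47 below the median of all genes (adjusted p = 5.03e-09), and from 80.3 to 50.2 TPM in ES2, a fall of 0.67 ± 0.04 (adjusted p = 1.35e-07). DNMT3B fell in A2780 by 1.47 relative to the median (adjusted p = 1.80e-07). Of the list, 5 rose and 4 fell of 12 in A2780 (4 and 7 with median-of-ratios scaling), and 2 rose and 3 fell of 11 in ES2, beside 65.5% and 48.4% of all genes called.

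IGF2 itself was near 0, and levels are given for a few of the 17 genes of its axis. IGFBP2, a binding protein that holds IGFs outside the cell, was 324 TPM in A2780 DMSO and 0.162 TPM in ES2 DMSO. INSR, the insulin receptor, was 5.96 and 0.0244 TPM. IGF2R, the receptor that clears IGF2, was 18.7 and 30.8 TPM. With siVRK1, 3 of 13 genes of the axis rose and 2 fell in A2780, where 40.9% of all genes were called. In ES2, where 54.8% were, 2 of 11 rose and 7 fell, with a median of -0.36 beside -0.00 for all genes. In ES2, IGF2BP3, which binds IGF2 mRNA, fell by 1.77 ± 0.07 (adjusted p = 1.01e-09) and IGF1R, the signalling receptor, by 1.39 ± 0.15 (adjusted p = 5.51e-06). The siCtrl group was again apart, with IGF2BP3 at 263 TPM against 46.2 TPM with DMSO and 76.7 TPM with siVRK1, and IGF1R at 13.9 TPM against 4.39 and 4.71 TPM. With luteolin, 2 of 13 rose and 7 fell in A2780, and 4 of 11 rose and 4 fell in ES2, beside 65.5% and 48.4% of all genes called. In ES2 IGFBP3 fell by 1.74 ± 0.13 (adjusted p = 5.12e-07) and IGFBP6 by 1.63 ± 0.12 (adjusted p = 3.46e-07). In A2780 IGFBP2 fell with luteolin by 0.79 relative to the median (adjusted p = 3.66e-07). Lists were described by these counts only and not tested as lists.

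The genes whose levels moved most like each imprinted gene over the 24 libraries, after the mean of each line was subtracted, were named among 11577 genes as a description. SNRPN was most like MAF1, a repressor of RNA polymerase III (Pearson r = 0.941), followed by SCLY (0.927) and VCAM1 (0.916). VCAM1 was at most 0.0507 TPM in A2780, so its likeness rests on ES2 (r = 0.989 over 12 libraries), and SCLY had 0.587 within A2780 and 0.985 within ES2. PLAGL1 was most like TSPYL1 (0.941), followed by RUNDC3A (0.924) and IRF2BP2 (0.921). RUNDC3A was at most 0.422 TPM in ES2, with 0.96 within A2780 and 0.777 within ES2. PEG10 was most like SALL2 (0.928), GNG4 (0.922) and FBXO17 (0.921), and DLK1 most like CT83 (0.887), CCR1 (0.860) and CREB3L4 (0.853). DLK1 was listed at 0 in ES2, so its values rest on the 12 A2780 libraries, and PEG10, below 1 TPM in A2780, had 0.593 to 0.684 within A2780 and 0.954 to 0.978 within ES2. For MEST the values were lower, with CAMKMT at 0.709 and ABHD17B at 0.704 among the genes most like it. They had 0.735 and 0.665 within A2780, and 0.736 and 0.752 within ES2, where MEST was at most 2.61 TPM. By level over the 8 group means, HGF, the hepatocyte growth factor, was nearest to MEST, at a mean distance of 1.26 on the log2(TPM + 1) scale. HGF was 626 TPM in A2780 DMSO and listed at 0 in ES2. The 24 libraries of these correlations share their 8 groups, so they are not independent points.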

How the data were processed

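Bulk RNA-seq of A2780 and ES2 was deposited as 1 table of TPM per transcript and library, in 24 libraries. Per the submitters' processing notes, FastQC and kallisto were used and the build was hg19, with no version or strand setting given. The authors' TPM adds to 1000000 per library, so depth is unknown and only the spread between libraries measures error. Of 193845 lines, 1958 were repeats with identical values and were dropped. Transcripts without a symbol (9542) or with more than 1 (19), together 0.514% to 1.03% of TPM, were not used. Distinct transcripts of a symbol were added to give gene TPM.

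Tests used limma 3.58.1 in R 4.3.3 (trend, log2(TPM + 1), two-sided, Benjamini-Hochberg over all genes, threshold 0.05) on genes with at least 1 TPM in at least 3 libraries of the fit, with the 12 libraries of a line, or all 24 for differences between lines. Standard errors follow ±, unless SD is named. Gene and transcript positions are from GENCODE 29 on GRCh38, matched by transcript identifier. The genes named were all 10 listed, neighbours that reached 1 TPM, and per comparison up to 3 rises and 3 falls from each list that passed without overlap between groups, of which the text names some. ZFP57, INSR, RTL1 and MAGEL2 were named outside this rule, after their values were seen, as were the DNMT3A and IGF2R levels. So were the line ratios of CDKN1C, ATP10A, DIRAS3, WT1 and ZDBF2. The genes and lists were chosen with earlier results of these data known. On simulated data for A2780 siVRK1 (12863 genes), 98% of 2-fold and 85% of 1.5-fold changes were recovered, with 12 false calls. For the difference of siVRK1 effects between the lines (13895 genes), 94% and 68% were recovered, with 6 false calls. Changes were put only into genes well above 1 TPM, so these rates do not cover genes near that level. The alternatives were other pseudocounts, filters, scalings, sets of libraries, a robust prior, summed repeats, a replicate block and each library left out. Gene sums by GENCODE 29 gene, and MEST line ratios with each ES2 library left out, were added after seeing the data. One gene that the rule on likeness to MEST named is not reported here.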

Additional observations from a re-analysis of the deposited data

Results flagged for a closer look

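For 6 results the treatment effect differed between the lines by limma's interaction over 24 libraries. The siVRK1 effect, as ES2 minus A2780 on the log2(TPM + 1) scale, differed by 0.76 for DLK1 (adjusted p = 8.86e-05), by 0.84 for PEG10 (adjusted p = 1.70e-04) and by -0.80 for SNRPN (adjusted p = 2.98e-08). DLK1 was listed at 0 in all ES2 libraries, so its difference is the A2780 effect with the sign turned. PEG10 was below 1 TPM in all A2780 libraries and entered the fit through ES2 alone, where its effect was 0.65, and the remainder comes from A2780 levels of 0.518 and 0.328 TPM, so nothing is read from its difference. SNRPN was expressed in both lines and fell in both.

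The luteolin effect differed by -0.98 for PLAGL1 (adjusted p = 1.14e-05), by 0.69 for SNRPN (adjusted p = 1.53e-07) and by -1.07 for NNAT (adjusted p = 0.0191), before subtraction of the median of all genes, which was -0.20. SNRPN fell in A2780 and rose in ES2. NNAT was at most 2.54 TPM in any library.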

How the results depend on the processing

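The counts of imprinted genes called or past 8-fold stayed within 1.5 times of the reported count with each library left out in turn (60 values) and in 92 values under other settings. The exceptions were 2. With only the compared groups in the fit, the A2780 siVRK1 count was 4 instead of 2, with MEST and PLAGL1 added, and with a pseudocount of 5 the number past 8-fold between the lines was 1 instead of 3, because that pseudocount shrinks differences of genes with low TPM. Leaving out 1 library at a time gave 2 to 3 called genes for A2780 siVRK1, 3 to 4 for A2780 luteolin and 2 to 3 for the A2780 controls, with 2 to 3 for ES2 siVRK1, 2 to 3 for ES2 luteolin and 3 for the ES2 controls. The values that turned sign were all of genes not called in the reported fit. With median-of-ratios scaling they were, for A2780 luteolin, MEST at -0.19 and DLK1 at -0.0955, for the A2780 controls PLAGL1 at -0.23 and SNRPN at -0.20, for the ES2 controls NNAT at -0.0107, and for the difference of luteolin effects DLK1 at 0.0775. With quantile normalization they were MEST at -0.0796 for A2780 siVRK1, DLK1 at -0.0353 for A2780 luteolin, PLAGL1 at -0.31 and SNRPN at -0.0235 for the A2780 controls, and DLK1 at 0.0355 and PEG10 at 0.22 for the difference of luteolin effects. PLAGL1 for the A2780 controls was -0.0755 with GENCODE sums, and PEG10 for the difference of luteolin effects was 0.47 with a pseudocount of 0.1. With 1 library left out, PLAGL1 for the A2780 controls ran from -0.0616 to 0.10, MEST from -0.41 to 0.00973 for ES2 siVRK1 and from -0.63 to 0.12 for the difference of siVRK1 effects, NNAT from -0.18 to 0.31 for ES2 luteolin and from -0.14 to 0.19 for the ES2 controls, and PEG10 from -0.16 to 0.0179 for the difference of luteolin effects. The cause of these turns was not tested. The replicate number as a block could use only the numbered libraries (1 for ES2 siVRK1). With that replicate block MEST was 0.41 for ES2 siVRK1 and 0.40 for the difference of siVRK1 effects, and all genes called fell from 6856 to 4262 and from 4859 to 3227. Same-numbered libraries did not deviate together (correlations of -0.05 to 0.04). These values show no pairing by number, but with 3 libraries per group they cannot exclude it. TPM gives no depth, so levels near 0 carry no counting limit.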

Other observations

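Among MEST transcripts of A2780, the 3 annotated as retaining an intron took a larger share with luteolin than with DMSO. These 3 are among the 5 transcripts that start further inside the gene, so their share is part of that class. They were 1.70% to 1.90% of MEST TPM in the DMSO libraries, 6.89% to 7.34% in the luteolin libraries, 3.33% to 3.77% with siCtrl and 3.22% to 4.69% with siVRK1. Over all genes, transcripts of that class held 3.39% ± 0.11 of TPM in A2780 DMSO and 5.23% ± 0.16 in A2780 luteolin, and 4.33% ± 0.03 and 4.54% ± 0.16 in the same ES2 groups (SD, n = 3 each). These shares were chosen after their values were seen and were not tested.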
